A study of Rattus norvegicus with 12 samples.

Results

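The genes described here encode potassium, calcium and sodium channels and their auxiliary subunits, measured in anterior pituitary of male rats treated with the synthetic estrogen diethylstilbestrol (DES). Members were all probe sets whose annotation names 1 gene symbol beginning with Kcn, Cacn or Scn, the last followed by a digit. This rule uses names and no measured value, but it was chosen with earlier results of these data known. It gave 111 of 14218 genes with a symbol of their own, measured by 178 of 31099 probe sets, and 75 of the genes are potassium channel genes, 24 calcium channel genes and 12 sodium channel genes. The arrays came from 4 congenic lines, in which a segment of the COP genome was bred onto the ACI background. Ept2 and Ept6 both carry theirs on chromosome 3, Ept1 on chromosome 6 and Ept9 on chromosome 10, and the labels do not give the ends of any segment. Each line has 3 arrays, 12 in all. Every animal, in all 4 lines, carried a subcutaneous implant holding 5 mg DES from 9 to 21 weeks of age, a treatment of 12 weeks, and received BrdU at 50 mg/kg 4 h before tissue was taken. Arrays of the ACI parent or of untreated animals were not analysed here. A line was therefore compared with the average of the 3 lines left, and a gene far from the rest in a single line shifts the other contrasts too. The labels conflict on replication: one text gives 3 biological replicates per line and another gives fewer independent replicates from 3 males, so the p-values below may in part measure technical spread.

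Hormone-secreting pituitary cells are electrically excitable. Voltage-gated sodium and calcium channels depolarize the cell and admit calcium, which triggers release of hormone granules, while potassium channels repolarize the membrane and set how often and how long the cell fires. In lactotrophs, dopamine acts through its D2 receptor to open inward rectifier potassium channels and to reduce calcium entry, and large-conductance calcium-activated potassium channels shape the bursts of action potentials. Auxiliary subunits alter the gating of the pore and its delivery to the membrane.

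The tissue carried main markers of its label, but not all of them were bright. Prolactin and growth hormone were among the brightest signals, at 41979 to 51767 for *Prl* and 27923 to 40693 for *Gh1*, in linear array units. *Avp*, *Oxt* and *Gfap*, markers of the posterior lobe, were dim. *Pomc*, a corticotroph marker, and *Esr1* of the lactotroph list were dim too, and the reason was not tested. Of the 178 channel probe sets, 70 probe sets of 53 genes passed the filter on dim signals (a mean over the 12 arrays of at least 69.7) and were tested, and 58 genes had no probe set that passed. Among the 9 genes for sodium channel pores *Scn7a* alone passed, whereas 11 of 20 genes for voltage-gated potassium pores, 6 of 10 for calcium pores and 7 of 13 for potassium auxiliary subunits did. A dim signal on these arrays does not show that a channel is absent.

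*Kcnip3* was the only channel gene that passed the test among the 4 lines, and it did so with both of its probe sets. The gene encodes calsenilin, also called DREAM or KChIP3, a calcium-binding protein that assembles with Kv4 potassium channels and, in the nucleus, binds a regulatory DNA element as a repressor. It lies on chromosome 3, the chromosome of the Ept2 segment and also of the Ept6 segment. Its proximal promoter is shown because it belongs to the one member that passed the test. The sequence is from RefSeq, build GRCr8, minus strand, chr3:135195361-135195660, and runs from 250 bases before the gene's start to 50 bases after it.

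Kcnip3: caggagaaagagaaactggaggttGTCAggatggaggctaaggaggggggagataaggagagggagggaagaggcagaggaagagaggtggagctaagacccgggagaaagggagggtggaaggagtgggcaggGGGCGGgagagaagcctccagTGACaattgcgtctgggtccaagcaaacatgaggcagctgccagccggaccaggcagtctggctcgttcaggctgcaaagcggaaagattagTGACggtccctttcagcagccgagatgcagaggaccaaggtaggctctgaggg

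Capitals mark a GC box (GGGCGG, 1 match) and the core of the DRE, the element that DREAM binds (GTCA, 3 matches, of which 2 lie on the other strand and read TGAC here). Both strands were searched. The half-site of the estrogen response element (GGTCA, which contains the DRE core), the cyclic AMP response element (TGACGTCA), the AP-1 site (TGANTCA) and the TATA box (TATAAA) had no match in this window. Of 33469 promoters of the same length, 33.1% hold the GC box letters, 85.6% the DRE core and 40.5% the half-site, so the DRE core is common. Of the 87 channel genes with a promoter in the table, 48 hold the GC box letters, 63 the DRE core and 27 the half-site. These matches describe letters and are not evidence of binding.

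On the brighter *Kcnip3* probe set the signals were 1590.4, 1694 and 1821 in Ept2. They were 889, 923 and 1103 in Ept1, 951, 1077 and 946 in Ept6, and 1129, 995 and 1212 in Ept9. All 3 Ept2 arrays lay above all 9 others, and the other 3 lines overlapped. On the dimmer probe set Ept2 gave 382, 311 and 339, against 176, 171 and 139 in Ept1, 189, 221 and 193 in Ept6, and 268, 222 and 225 in Ept9. Ept2 was again above the 9 other arrays, and here Ept1 lay below all others.

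**Figure D1:**
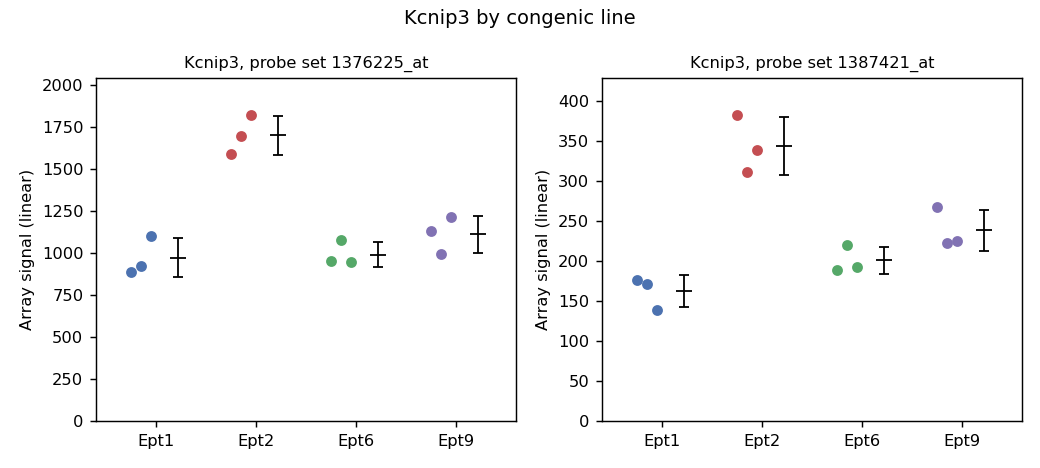
Signal of the 2 *Kcnip3* probe sets on each array (linear units, y axis from 0) in the 4 congenic lines; points are arrays and bars are mean ± SD (n = 3). The 3 Ept2 arrays sit above all 9 others on both probe sets, with means of 1702 and 344.

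*Kcnip3* measured 1702 ± 116 (SD, n = 3) in Ept2 on the brighter probe set, with means of 972, 991 and 1112 in Ept1, Ept6 and Ept9. The Ept2 mean exceeded that of the other lines by 0.73 on the log2 scale (95% interval 0.52 to 0.93, limma adjusted p = 0.00965), and by 0.75 on the dimmer one (0.53 to 0.97, adjusted p = 0.0108). The F test among the lines gave adjusted p of 0.0187 and 0.0132. Among all 18607 tested probe sets, 0.989% passed the F test and 0.774% passed in Ept2, 0.322% as higher, and the 2 *Kcnip3* probe sets were the only channel probe sets to do either. Line by line, Ept2 exceeded Ept1 by 1.74-fold, Ept6 by 1.71-fold and Ept9 by 1.53-fold on the brighter probe set (limma adjusted p = 0.0309, 0.0177 and 0.0344). On the dimmer one the corresponding folds were 2.03, 1.66 and 1.42, and the last of these did not pass (adjusted p = 0.103). Ept6, which also carries a COP segment of chromosome 3, did not differ from Ept1 or Ept9 at *Kcnip3* beyond the test's threshold on either probe set.

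The *Kcnip3* call in Ept2 was lost in the fit without 1 of the arrays and in the fit with a measure of RNA quality. Without Ept2 replicate 3, the difference was 0.68 and 0.76 on the log2 scale and the limma adjusted p became 0.0587 and 0.058. The gap in log2 signal from the 5′ to the 3′ control probe sets for *Gapdh*, which grows as RNA degrades, was also highest in Ept2, at 0.314 to 0.422 (log2) against 0.0879 to 0.278 on the 9 other arrays. The same gap for beta-actin and hexokinase was higher on every Ept2 array than on any Ept6 or Ept9 array. It overlapped between Ept2 and Ept1. For beta-actin it was 1.756 to 1.852 in Ept2, 1.785 in Ept1 replicate 2, and at most 1.72 in Ept6 and Ept9. For hexokinase it was 1.075 to 1.544 in Ept2, 1.403 in Ept1 replicate 3, and at most 1.004 in Ept6 and Ept9. With the *Gapdh* difference as a covariate, the *Kcnip3* estimates were 0.56 (95% interval 0.13 to 0.99) and 0.42 (0.02 to 0.82), and neither passed (limma adjusted p = 0.471 and 0.561). In that fit no probe set on the array passed in Ept2, 1602 had an unadjusted p under 0.05, and the median standard error rose from 0.12 to 0.244. The part of RNA quality in the result was not tested further.

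The estimates of the cell type marker lists in Ept2 lay on both sides of 0, with none called. The summed signal of the somatotroph list (all 3 of 3 markers above the filter) ran from 36300 to 41100 in Ept2 and from 28300 to 34700 in the others. That sum is mostly *Gh1*, and 1 of the 3 genes was above 0 in Ept2, with a median log2 difference of -0.14. All 5 gonadotroph markers were above 0 in Ept2 (median 0.44), with sums of 35000 to 41700 against 29600 to 37600. So were all 3 folliculostellate or stem cell markers on the array (median 0.35, sums of 1080 to 1520 against 818 to 1080) and all 4 endothelial markers (median 0.18, 2150 to 2950 against 2060 to 2510). The 2 tested thyrotroph markers were above 0 as well, with the largest median of these lists (0.51, sums of 10800 to 22100 against 8030 to 13200). The 2 tested corticotroph markers were also above 0 (median 0.36, 211 to 466 against 186 to 378). Of the 4 tested lactotroph markers, 2 were above 0 (median 0.03, 98200 to 112000 against 94900 to 101000). The sum of the melanotroph list, of which *Pcsk2* alone was bright, ran from 958 to 1200 in Ept2 and from 1360 to 1980 in the others. The neuron list (5 of 6 above the filter, *Gad1* dim) ran from 4830 to 5270 in Ept2, inside the range of 4560 to 5950 set by the others, and 3 of its 5 tested genes were above 0 (median 0.28). No probe set of these lists passed the test in Ept2, and the part of cell composition in the *Kcnip3* difference was not tested. In bulk tissue, a change in the number of cells that express a gene and a change in its RNA per cell cannot be told apart.

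On the dimmer probe set *Kcnip3* was also lower in Ept1 than in the mean of the other lines, by -0.61 on the log2 scale (limma adjusted p = 0.0431), in a contrast where 0.193% of all probe sets passed in either direction and 0.15% as lower. This call held under 6 of 23 alternative settings and under none of the 12 that left out 1 array (adjusted p from 0.0533 to 0.209). The other probe set gave -0.34 (adjusted p = 0.355). Against Ept6 alone and Ept9 alone the Ept1 differences did not pass (adjusted p = 0.727 and 0.123), and the Ept1 contrast contains the high Ept2 arrays.

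*Kcnip3* was compared with the genes beside it on chromosome 3, a set chosen after its values were seen. Of the 10 nearest tested genes on each side, measured by 32 probe sets, 3 genes had 1 probe set each that passed in Ept2, where 0.774% of all tested probe sets did, and none passed in Ept6, where 0.161% did. *Sppl2a*, an intramembrane protease, was higher by 1.19 on the log2 scale on 1 of its 4 probe sets (limma adjusted p = 0.0148), while the other 3 gave -0.05, -0.05 and -0.40 and did not pass. *Bub1*, a kinase of the spindle checkpoint, and *Mertk*, a receptor tyrosine kinase, were lower, at -0.75 (adjusted p = 0.0453) and at -0.62 on 1 of 2 probe sets (adjusted p = 0.0147). Chromosome 3 holds 14 of the channel genes. Besides *Kcnip3*, *Kcna4*, *Kcnj3*, *Kcnt1* and *Scn7a* were tested there and none passed in any line. None of the 3 tested channel genes on chromosome 6 passed in Ept1, and none of the 4 on chromosome 10 passed in Ept9.

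Over all 70 tested channel probe sets, the unadjusted counts lay on both sides of the background. At an unadjusted p under 0.05, 9 passed the F test (12.9%, against 14.1% of all tested probe sets). In Ept2 there were 15 (21.4%, background 14.4%), in Ept6 12 (17.1%, 10.7%), in Ept1 7 (10%, 7.5%) and in Ept9 5 (7.14%, 11%). After adjustment, no channel probe set passed in Ept6 or Ept9, where 0.161% and 0.666% of all probe sets did. The 4 contrasts share arrays, so their counts are not independent of each other.

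For most of the 53 tested channel genes, the brightest probe set gave a bound on the difference. The 58 genes without a tested probe set have none. The intervals rest on replicates that may be in part technical. On the brightest probe set of each of the 53 genes, the 95% interval lay within a 2-fold change in both directions for 47 genes in Ept1, 46 in Ept2, 44 in Ept6 and 45 in Ept9. It did so in all 4 contrasts for 42 genes, and within 1.5-fold in all 4 for 21 genes, among them *Cacna1c*, *Cacna1d*, *Cacna1g*, *Kcnma1*, *Kcnk1* and *Kcnh2*. The bound does not extend to their dimmer probe sets. For *Scn2b*, also among the 21, the dimmer one had an interval of 0.297-fold to 1.09-fold in Ept2 and 0.73-fold to 2.69-fold in Ept9. The precision followed the signal. The median SD within a line was 0.13 on the log2 scale for the 13 genes with a mean signal of 500 or more and 0.311 for the 40 dimmer genes. Over all 53 it was 0.267, against 0.186 for all tested probe sets.

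**Figure D2:**
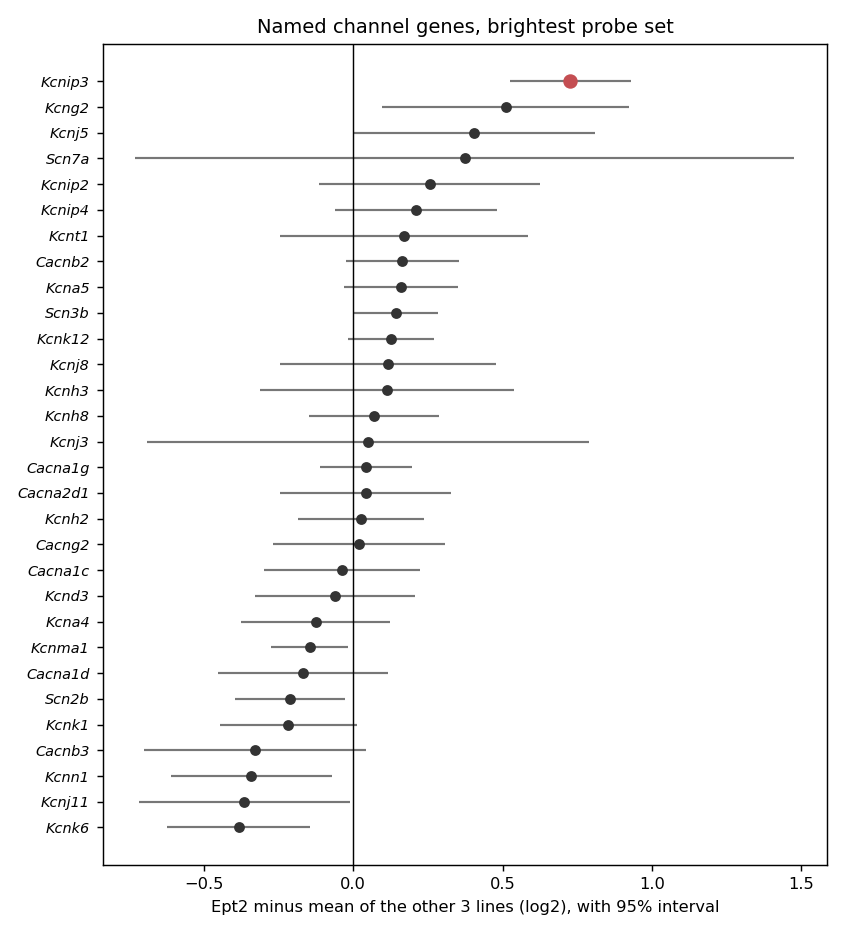
Ept2 minus the mean of the other 3 lines (log2) for the 30 named channel genes, on the brightest probe set of each; points are estimates and bars 95% intervals. *Kcnip3* (red) is the only gene that passed the adjusted test, at 0.73.

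In what follows, the value of a gene is that of its brightest probe set unless another is named. Among the pore genes of voltage-gated potassium channels, none of 13 tested probe sets passed in any line. *Kcna5*, *Kcnd3* and *Kcna4* were named for their high signal. *Kcna5*, which encodes the delayed rectifier Kv1.5, gave 608, 709 and 581 in Ept6, against 583, 719 and 650.0 in Ept1, 811, 724 and 765 in Ept2, and 829, 751 and 763 in Ept9. Every Ept2 and Ept9 array was above every Ept1 and Ept6 array. The Ept6 difference of -0.20 (log2) did not pass (limma adjusted p = 0.442). *Kcna4*, a fast-inactivating A-type channel on chromosome 3, measured 586 ± 56.5 in Ept1 and 425 ± 69.8 in Ept6 (SD, n = 3), and its Ept1 difference of 0.33 did not pass (adjusted p = 0.496). *Kcnd3*, which encodes Kv4.3, a pore partner of the KChIP proteins, overlapped among all lines. Its brighter probe set differed most in Ept9, at -0.21 (adjusted p = 0.57), and its dimmer one in Ept1, at 0.37 (adjusted p = 0.673). *Kcng2*, a modifier subunit, stood just over the filter. It gave 46.3, 54.4 and 25.7 in Ept9 and 44.1 to 109.8 in the other lines, a log2 difference of -0.74 (adjusted p = 0.146).

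The eag and Kv7 families had 4 tested genes and no call. *Kcnh2*, which encodes the ERG channel that helps to hold the resting potential of lactotrophs, ranged from 282 to 392 over the 12 arrays. Its largest difference was -0.17 in Ept9 (limma adjusted p = 0.553). *Kcnh8* differed by 0.14 in Ept6 (adjusted p = 0.654) and *Kcnh3* by -0.48 in Ept1 (adjusted p = 0.599), both eag-type pores with overlapping lines.

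Inward rectifiers had 6 tested genes of 15, at low signals. *Kcnj3* and *Kcnj5* encode G protein-gated subunits of the type that dopamine receptors open. *Kcnj5* gave 318, 233 and 255 in Ept2, with a difference of 0.40 (limma adjusted p = 0.349), and *Kcnj3* gave 35.9, 155 and 152 in Ept9, with a difference of -0.24 (adjusted p = 0.85). The *Kcnj3* difference turned to 0.33 without the low array, Ept9 replicate 1. *Kcnj11* and *Kcnj8* encode the pores of ATP-sensitive channels. *Kcnj11* differed by 0.38 in Ept6 on 1 probe set (adjusted p = 0.441), and its other 2 gave 0.03 and -0.09 there. *Kcnj8* gave 54.1, 49.4 and 93.2 in Ept1 and 79.1 to 134 in the other lines, a difference of -0.62 (adjusted p = 0.331).

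The two-pore-domain channels, which carry background potassium current, held the gene nearest to a second call. *Kcnk6*, or TWIK-2, has 2 tested probe sets. On the dimmer one Ept2 gave 129, 217 and 185, against 278, 291 and 236 in Ept1, 325, 293 and 318 in Ept6, and 248, 287 and 258 in Ept9. The 3 Ept2 arrays lay below all others and the 3 Ept6 arrays above all others. The Ept2 difference was -0.65 on the log2 scale (limma adjusted p = 0.0523), just outside the threshold. It passed under 5 of 23 alternatives, among them median centring of the arrays (adjusted p = 0.0456) and the fit without Ept2 replicate 2 (0.0341), and with the *Gapdh* covariate it was -0.28 (adjusted p = 0.803). The brighter probe set gave -0.38 (adjusted p = 0.144) and the Ept2 and Ept9 arrays overlapped there. In Ept6 the differences were 0.41 and 0.29 (adjusted p = 0.307 and 0.399).

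*Kcnk1*, or TWIK-1, gave 2706, 2263 and 2557 in Ept6 and 1562 to 2229.7 in the other lines. The Ept6 arrays were above all others, and the difference of 0.33 did not pass (limma adjusted p = 0.318). *Kcnk12*, on chromosome 6, gave 980.2, 964 and 977 in Ept1 and 1014 to 1209.8 elsewhere. These 3 arrays were below the 9 others with a spread of 8.64 (SD, n = 3), yet the difference was small, -0.19 (adjusted p = 0.498). Probe sets with all 3 arrays of a line above or below the 9 others numbered 3 above and 3 below in Ept2, where 1.92% and 1.68% of all tested probe sets stood so. There were 2 above in Ept6 (background 0.865%) and 2 below in Ept1 (background 0.543%).

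**Figure D3:**
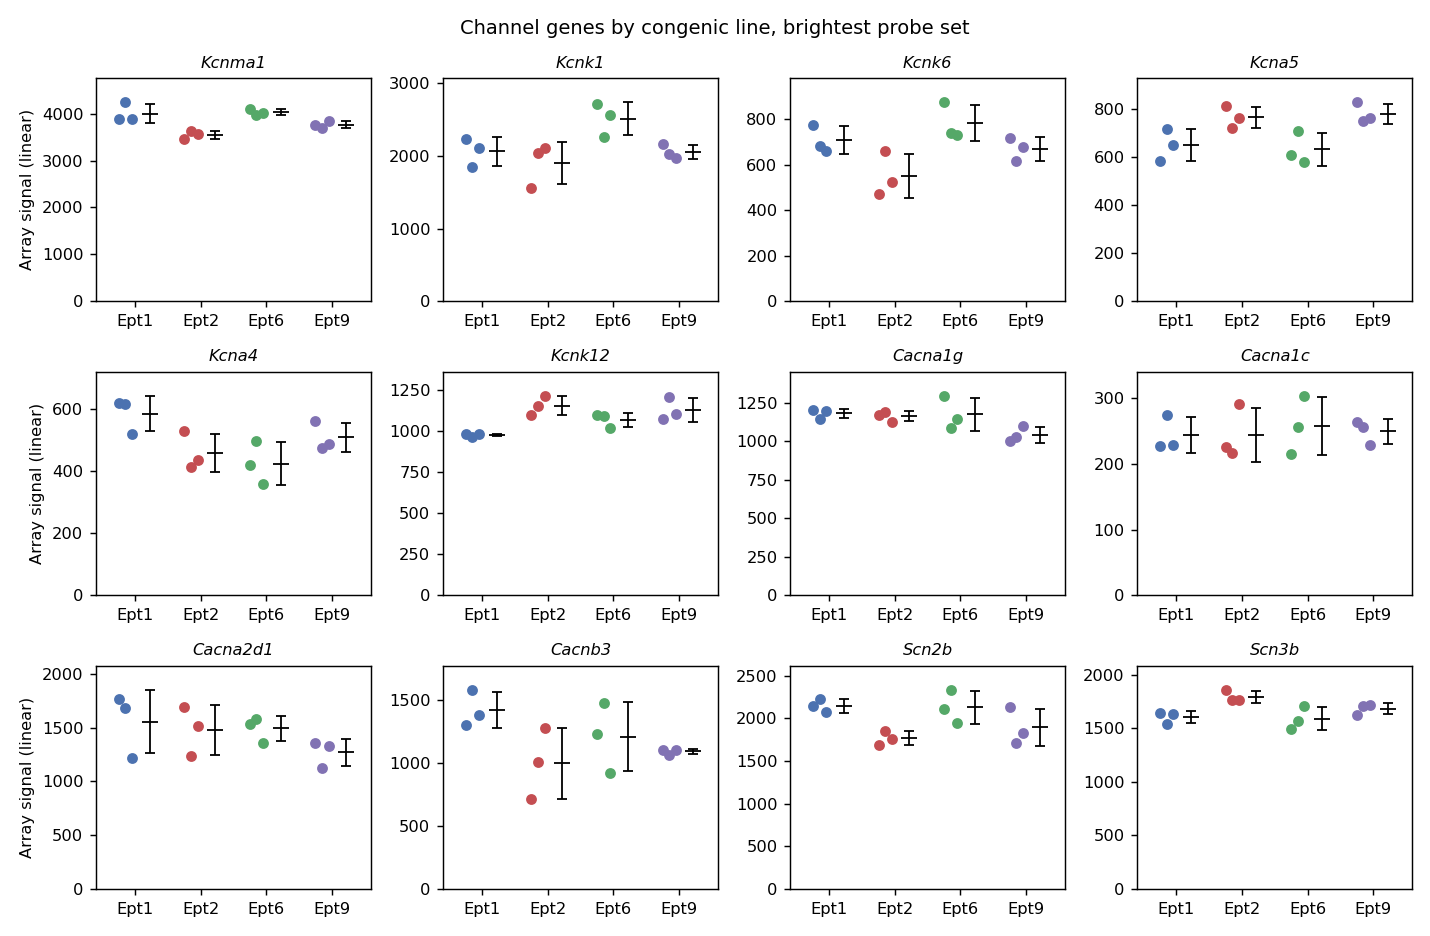
Signal of 12 channel genes on each array (linear units, y axes from 0), on the brightest probe set of each gene, in the 4 lines; points are arrays and bars are mean ± SD (n = 3). Lines overlap in most panels; *Kcnma1* and *Scn3b* in Ept2, *Kcnk1* in Ept6 and *Kcnk12* in Ept1 stand apart from the 9 other arrays without passing the adjusted test.

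*Kcnma1*, which encodes the large-conductance BK channel opened by calcium and voltage, was the most precisely measured potassium channel gene. On its brighter probe set it gave 3458, 3627 and 3562 in Ept2 and 3697 to 4241 in the other lines. All 3 Ept2 arrays were below the 9 others, and the difference was -0.15 (limma adjusted p = 0.289). *Kcnn1*, which encodes the small-conductance SK1 channel, was likewise below the other arrays, with 230.3, 221 and 233 in Ept2 and 240.2 to 359 elsewhere, a difference of -0.34 (adjusted p = 0.234). *Kcnt1*, a sodium-activated channel, differed by -0.21 in Ept6 (adjusted p = 0.727).

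The potassium auxiliary genes, the group to which *Kcnip3* belongs, had 7 tested genes. On the brightest probe set of each, all 7 estimates were above 0 in Ept2, with a median of 0.26 on the log2 scale, while 1 of 7 was above 0 in Ept1 and 1 of 7 in Ept6, and *Kcnip3* alone passed the test. The median over all 53 channel genes in Ept2 was 0.04, with 32 above 0, while 27 were above 0 in Ept1 and 33 in Ept6. A gene that is high in Ept2 lowers its own estimates in the other lines, so these counts are not independent. With the *Gapdh* covariate, 4 of the 7 were above 0 in Ept2. The dimmer *Kcnip4* probe set, not among the 7, was at -0.26 in Ept2 (limma adjusted p = 0.324), opposite to the 0.21 of the brighter one. *Kcnip4* and *Kcnip2*, which encode other Kv4 partners, differed most on their brightest probe sets by -0.24 in Ept9 (limma adjusted p = 0.517) and -0.31 in Ept6 (adjusted p = 0.542). *Kcnip4* measured 927 ± 176 in Ept2 and 725 ± 87.9 in Ept9 (SD, n = 3), and the lines overlapped.

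**Figure D4:**
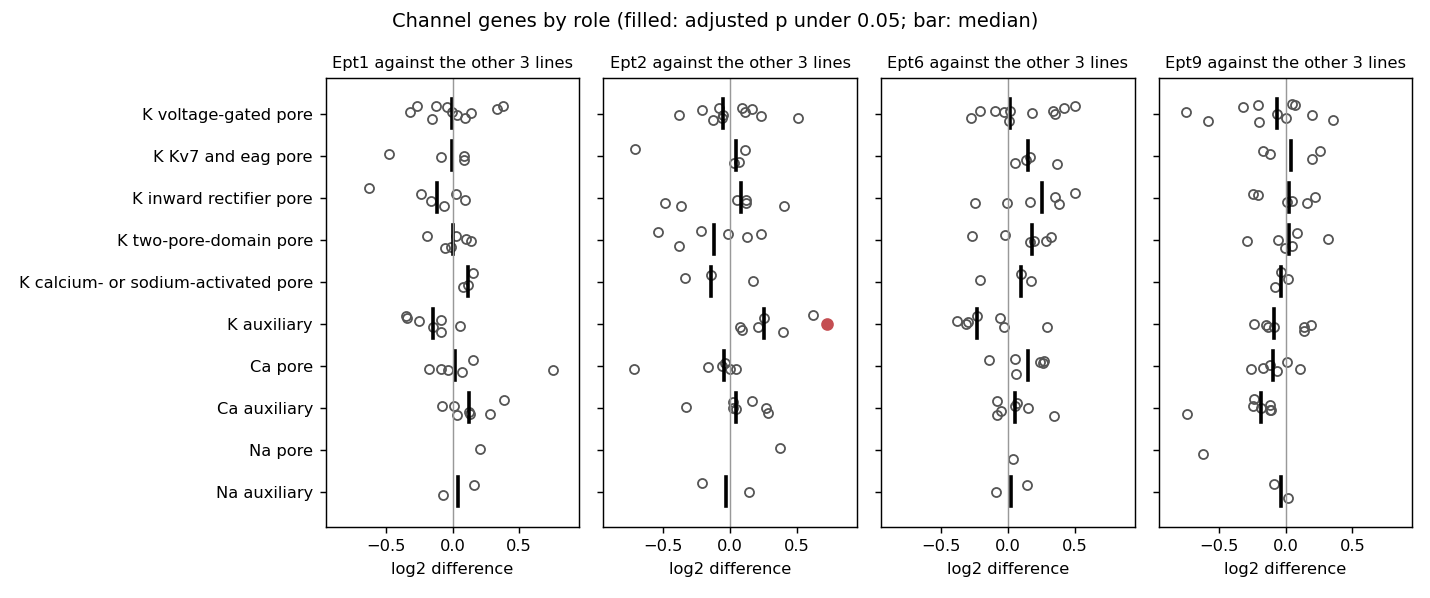
Log2 difference of each line from the mean of the other 3 for the 53 tested channel genes, grouped by role; each circle is the brightest probe set of a gene, black bars are medians, and the filled circle passed the adjusted test. The filled circle is *Kcnip3* in Ept2; all 7 potassium auxiliary genes lie above 0 there.

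Calcium channel genes showed no call in any line, among 16 tested probe sets. *Cacna1g*, the T-type pore Cav3.1, gave 999, 1027 and 1097 in Ept9 and 1084 to 1294 elsewhere, with a difference of -0.17 (limma adjusted p = 0.403). *Cacna1d* and *Cacna1c* encode the L-type pores that carry much of the calcium entry in pituitary cells. *Cacna1d* measured 359 ± 58.8 in Ept6 and 267 ± 28.9 in Ept9, with an Ept6 difference of 0.27 (adjusted p = 0.486). *Cacna1c* was nearly level, with means of 244 to 258 and its widest difference at 0.06 in Ept6 (adjusted p = 0.881).

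Among the calcium auxiliary genes, all 7 estimates on the brightest probe sets were below 0 in Ept9, and none passed. Their median was -0.18 on the log2 scale, against -0.08 over all 53 channel genes, of which 21 were above 0 there. Of the other 2 *Cacnb2* probe sets, not among the 7, 1 was at 0.21 and 1 at -0.12 in Ept9 (limma adjusted p = 0.886 and 0.806). *Cacna2d1*, the alpha-2-delta subunit that raises surface delivery of the pore, gave 1357, 1127 and 1328 in Ept9 and 1219 to 1768 in the other lines, a difference of -0.24 (limma adjusted p = 0.541). *Cacnb3* and *Cacnb2* encode beta subunits. *Cacnb3* differed by 0.39 in Ept1 (adjusted p = 0.641), with a wide spread in Ept2 from 713 to 1274, and *Cacnb2* by 0.16 in Ept2 (adjusted p = 0.421). The other 2 *Cacnb2* probe sets gave 0.04 and -0.58 in Ept2 (adjusted p = 0.924 and 0.497). *Cacng2*, or stargazin, differed by 0.28 in Ept1 (adjusted p = 0.677), and its dimmer probe set by 0.40 in Ept2 and -0.42 in Ept9 (adjusted p = 0.338 and 0.415).

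Sodium channel genes also had no call, among 5 tested probe sets. *Scn3b* and *Scn2b* encode beta subunits. *Scn3b* gave 1858, 1759.5 and 1764 in Ept2 and 1497 to 1721 elsewhere on its brighter probe set, so that Ept2 was above the 9 others, with a difference of 0.14 (limma adjusted p = 0.344). *Scn2b* gave 1691, 1851 and 1764 in Ept2 and 1713 to 2334 elsewhere, a difference of -0.21 (adjusted p = 0.284). *Scn7a*, an atypical sodium channel, varied more within lines than between them, from 74.0 to 477 in Ept6, and its Ept9 difference of -0.62 had a standard error of 0.499 (adjusted p = 0.7).

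Where a gene had 2 or more tested probe sets, they did not always move together. Of 14 such genes, the probe sets shared their sign in 9 genes in Ept1, 8 in Ept2, 9 in Ept6 and 5 in Ept9. *Kcnip3* and *Kcnk6* shared it in Ept2.

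Other genes of excitable cells were set beside the channel genes from 4 lists holding 109 genes and 119 tested probe sets. They were other pore genes (30 tested probe sets), calcium stores, pumps and exchangers (34), the sodium potassium pump (8), and channel partners and regulators (47). None passed the limma F test, and 24 had an unadjusted p under 0.05, where 14.1% of all tested probe sets did. In the line contrasts, 1 probe set passed, in Ept2 (background 0.774%), for *Nsf*, the ATPase that recycles the membrane fusion machinery. It was lower in Ept2 by -0.65 on the log2 scale (limma adjusted p = 0.0335), and its other 2 probe sets gave -0.33 and -0.30 (adjusted p = 0.106 and 0.151).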

How the data were processed

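For 12 rat anterior pituitary arrays the authors deposited 1 linear intensity per probe set and array. They scaled each array so that its mean, trimmed by 2% at each end, is 500 (500.18 to 500.19). Which software made the signals is not given in the sources used here. Any 2 arrays correlated at 0.959 to 0.97. The number of arrays limits the precision. Groups came from the sample titles.

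From the deposited intensity, log2(signal + 16) was computed. Left out were 57 control probe sets and 12435 dim ones, with a mean signal under the 40th percentile (69.7), which left 18607. Fold changes on this scale understate changes of dim genes. limma 3.58.1 in R 4.3.3 supplied the moderated F statistic for the 4 lines and the contrast of every line with the average of the rest. P-values were adjusted by Benjamini-Hochberg over all 18607, and the threshold was 0.05. The procedure was tested on simulated data. Intervals are 95% from the same fit.

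Symbols came from the platform annotation (1 symbol for 20832 probe sets, several for 436, none for 9831), and chromosomes and promoters from RefSeq, GRCr8, where all 111 channel symbols matched. Sequence differences between strains under the probes were not examined, and protein sequences were not used here. The members and gene lists were chosen with earlier results of these data known. Named were *Kcnip3*, genes with a call, the 15 with the smallest F p, genes whose arrays stood apart by over 0.5, and the 3 brightest tested per role, 30 in all. For each, the text gives the line with the largest difference. Gene groups are roles fixed by symbol. Lists of cell type markers gave summed signals. Alternatives are listed at the end of the text.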

Additional observations from a re-analysis of the deposited data

How the results depend on the processing

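Tried were another pseudocount (1 or 64), centring of arrays on the median, quantile normalization, a 60th-percentile filter or none, the replicate block, array weights, an intensity trend, the *Gapdh* covariate, a call against each other line, and the loss of any 1 array. The channel probe sets called among the 4 lines went from 2 to 0 with no filter and to 0 with the *Gapdh* covariate, to 3 at the 60th percentile, and from 0 to 2 as single arrays were left out. In Ept2 the count went from 2 to 0 with the *Gapdh* covariate, to 1 when each other line had to differ, and to 3, with *Kcnk6* added, under a pseudocount of 64, median centring, the 60th percentile or the trend. It ran from 0 to 3 leaving out single arrays. In Ept1 it went from 1 to 0 with median centring, with no filter, with an intensity trend, with the replicate block, when each other line had to differ, and to 0 without any 1 array. In Ept6 and Ept9 it was 0 under all of these. Other excitability genes called went from 0 to 1 with a pseudocount of 64, the 60th percentile or array weights, and to 2 with the trend.

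Replicate numbers in the titles did not pair the arrays: same-number deviations correlated at -0.134 to 0.0728. With the replicate block, *Kcnip3* kept its Ept2 calls and lost its Ept1 call (adjusted p = 0.097), and calls over all probe sets fell from 184 to 84 in the F test.

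For the 45 differences tried under the alternatives, 15 of 1017 values changed sign, none of them called: *Cacna1c* in Ept6 to -0.056 without Ept6 replicate 3 (-0.056 to 0.18 over single arrays left out), *Kcna5* in Ept6 to 0.0059 and *Kcnip2* in Ept6 to 0.071 with the *Gapdh* covariate, and *Kcnj3* in Ept9 to 0.33 without Ept9 replicate 1 (-0.53 to 0.33). The rest were on dimmer probe sets. With the *Gapdh* covariate *Cacnb2* in Ept2 turned to 0.62 and -0.086, *Cacng2* in Ept2 to -0.015 and *Kcnj11* in Ept6 to -0.21 (-0.0043 with quantile normalization). Over single arrays left out, *Cacnb2* in Ept2 ran from -0.029 to 0.077 and *Kcnj11* in Ept6 from -0.10 to 0.25 and from -0.27 to 0.25. Among the other 131 contrasts of the named genes, most of which the text does not print, 137 of 2951 values changed sign and none was called. The 45 were set apart from these after the sign changes in all the contrasts had been counted. Counts of estimates by direction were tried after seeing the data: 7 of 7 potassium auxiliary genes higher in Ept2 became 4 of 4 at the 60th percentile and 4 of 7 with the *Gapdh* covariate. The cause of these changes was not tested, except that stronger filters and left-out arrays test fewer probe sets or arrays. Signals near the filter, such as *Kcng2*, are the least precise.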
